A study of Mus musculus with 4 samples.

Results

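The 8 genes described here encode carriers that move solutes across the blood-nerve barrier, and they were chosen by name: the glucose transporter Slc2a1, the amino acid carriers Slc7a5, Slc3a2 and Slc38a5, the monocarboxylate carrier Slc16a1, the organic anion carrier Slco1a4 and the efflux pumps Abcb1a and Abcg2. All 8 symbols were found among the 24062 genes of the deposited count table. Of these, 7 reached 1 CPM (library-size-scaled read counts, with TMM factors) in at least 1 library, as did 14700 genes in all, and Slc38a5 did not. RNA was sequenced from sciatic nerve of C57BL/6 mice aged 4 months, with 1 library for each of 4 genotypes. PKO-NF1 nerves were P2RY14-/- with Nf1fl/f and Dhh Cre, NF1 nerves were Nf1fl/fl with Dhh Cre, PKO nerves were P2RY14-/-, and WT nerves have C57BL/6 as their genotype. Dhh Cre is active in the developing Schwann cell lineage and is not directed at vessel cells. How many animals made up a library, and of which sex, is not in the labels, and NF1 is labelled a repeat.

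The blood-nerve barrier consists of the endothelium of endoneurial vessels and the perineurium, the layered sheath of each fascicle. Tight junctions close the path between cells, so glucose, amino acids and lactate enter the endoneurium through carriers in the cell membrane, and ABC pumps return lipophilic drugs to the blood. Schwann cells also use several of these carriers for their own supply.

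With 1 library for each genotype there was no replicate check on any difference. Every ratio below compares 2 libraries, and its 95% exact conditional interval covers counting error only. A gene is given as at least 2-fold lower or higher where the ratio passed 2-fold and its interval excluded 1. Library totals were between 14111201 and 20362685 counts, and the level of 3 counts, which a library listed at 0 cannot exclude, was 0.152 to 0.183 CPM. P2ry14 was at 10.6 CPM in PKO-NF1 and 10.9 CPM in PKO, against 65.3 CPM in NF1 and 37.6 CPM in WT. Nf1 was at 20.5 CPM in PKO-NF1 and 63.4 CPM in NF1, against 41.0 CPM in PKO and 72.8 CPM in WT, so gene totals did not set NF1 far from WT. The libraries stood apart in 3 other ways. Of 35 skeletal muscle genes the summed level was 71535 CPM in NF1 and between 195 and 1271 CPM in the other libraries. Xist, transcribed from the inactive X, reached 39699 counts in NF1, 9 in PKO-NF1, 4948 in PKO and 10304 in WT, and Y-linked Ddx3y had none in NF1 and 396 to 842 counts elsewhere. Genes under 41.4% transcript GC had a median log2 ratio of 0.46 for NF1 vs WT and 0.55 for PKO-NF1 vs PKO, against -0.41 and -0.59 for genes above 57.9% GC. Myelinating Schwann cell genes, the defining markers of the tissue, were detected in every library, with none of 15 at 0, at a summed 19156 CPM in PKO-NF1, 8533 in NF1, 36001 in PKO and 25449 in WT.

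Levels were compared between genes per kilobase of the longest annotated transcript, as means over the 4 libraries. Slc2a1 stood highest at 56.3 CPM per kb. Slc16a1 followed with 34.2 and Slc3a2 with 33.1 CPM per kb, and their order changed between libraries: 36.7 against 30.9 CPM per kb in PKO-NF1, 32.5 against 18.9 in NF1, 40.2 against 43.0 in PKO and 27.5 against 39.6 in WT. Abcg2 averaged 14.01, Slc7a5 13.1, Abcb1a 11.2 and Slco1a4 7.35 CPM per kb. Slc38a5 was at 0.0433 CPM per kb. The most variable of the 7 measured genes across libraries was Slc7a5, whose highest CPM was 3.38 times its lowest, and the least variable were Slco1a4 at 1.41 times and Slc16a1 at 1.46 times.

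Promoter windows from RefSeq (GRCm38.p6), which run from 250 bases before to 50 bases after a transcript start, matched 7 of the 8 genes. Slc7a5 had no window, so its promoter was not searched. Slc2a1, Slc3a2 and Abcb1a are shown because their levels moved most alike across the 4 libraries among the pairs of carriers, and Slc16a1 because it was above WT in both Nf1 mutants. Capitals mark matches on either strand to TGATGNAA (a C/EBP-ATF response element), ACGTG (the core of hypoxia response elements), CTTTGA (TCF/LEF), GGGCGG (GC box) and CCAAT, so CACGTG counts as a match on each strand. The windows are chr4:119108495-119108794 on the plus strand for Slc2a1, chr19:8713848-8714147 on the minus strand for Slc3a2, chr5:8566841-8567140 on the plus strand for Abcb1a, and chr3:104638414-104638713 on the plus strand for Slc16a1. The Abcb1a window surrounds a RefSeq transcript start far upstream of the GENCODE gene start at 8660077, so its letters describe that start alone. The Slc3a2 window likewise surrounds a RefSeq start inside the GENCODE gene, which begins at 8723369 on the minus strand.
Slc2a1: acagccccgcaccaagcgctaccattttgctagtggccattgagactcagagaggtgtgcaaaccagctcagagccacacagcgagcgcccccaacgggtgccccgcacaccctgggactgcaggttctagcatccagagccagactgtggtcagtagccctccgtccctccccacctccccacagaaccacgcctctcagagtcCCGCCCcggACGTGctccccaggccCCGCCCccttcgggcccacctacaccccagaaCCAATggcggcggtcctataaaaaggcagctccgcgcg
Slc3a2: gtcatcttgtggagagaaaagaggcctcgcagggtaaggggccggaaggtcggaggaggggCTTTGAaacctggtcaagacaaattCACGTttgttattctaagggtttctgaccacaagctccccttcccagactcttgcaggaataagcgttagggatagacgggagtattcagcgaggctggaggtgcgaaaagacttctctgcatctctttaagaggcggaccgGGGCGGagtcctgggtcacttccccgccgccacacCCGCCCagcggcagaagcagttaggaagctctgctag
Abcb1a: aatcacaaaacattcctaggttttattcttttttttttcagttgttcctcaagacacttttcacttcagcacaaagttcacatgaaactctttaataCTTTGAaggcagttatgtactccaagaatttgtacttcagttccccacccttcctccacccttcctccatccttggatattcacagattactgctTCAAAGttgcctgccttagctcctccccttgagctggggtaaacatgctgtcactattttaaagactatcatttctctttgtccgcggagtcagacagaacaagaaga
Slc16a1: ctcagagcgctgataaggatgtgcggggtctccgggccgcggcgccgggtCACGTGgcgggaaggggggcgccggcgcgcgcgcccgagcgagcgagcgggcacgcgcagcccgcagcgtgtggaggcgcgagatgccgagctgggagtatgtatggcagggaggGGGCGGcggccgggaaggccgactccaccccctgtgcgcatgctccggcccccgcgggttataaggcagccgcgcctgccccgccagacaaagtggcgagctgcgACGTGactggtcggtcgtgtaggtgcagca

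These windows shared little. None of the 4 held TGATGNAA, which 3.97% of all 32851 promoter windows hold. ACGTG, held by 19.6% of all windows, occurred once in Slc2a1 (at -36 from the start) and in Slc3a2 (at -164), 3 times in Slc16a1 and not in Abcb1a. CTTTGA, held by 16.0% of all windows, occurred once in Slc3a2, 2 times in Abcb1a (at -153 and -58) and not in Slc2a1 or Slc16a1. GC boxes, held by 35.7% of all windows, numbered 2 in Slc2a1, 2 in Slc3a2 and 1 in Slc16a1. CCAAT, held by 37.4%, occurred once in Slc2a1 among the 4. GC content was 65.3% in the Slc2a1 window, 56.0% in Slc3a2, 40.3% in Abcb1a and 73.7% in Slc16a1, against a median of 52.7% over all windows. A match is a run of letters and not a measured binding site.

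Slc2a1 encodes GLUT1, the facilitative glucose transporter of barrier endothelium and perineurium (ENSMUSG00000028645; GRCm38 chromosome 4, 119108711 to 119137983, plus strand, 10 exons in its largest transcript). It was at 161 CPM in PKO-NF1, 126 in NF1, 254 in PKO and 193 in WT. Both Nf1-mutant libraries were below both libraries with intact Nf1. The level was 1.53-fold lower in NF1 than WT (interval 1.45 to 1.61), and in PKO-NF1 1.58-fold lower than PKO (1.51 to 1.66). The log2 ratio of PKO-NF1 vs PKO minus that of NF1 vs WT was -0.05 (-0.15 to 0.05), the smallest such difference among the 7 genes and the single one whose counting interval included 0. Over all 14566 genes with counts in every library, the median size of that difference was 0.42.

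Slc7a5 encodes LAT1, which carries leucine and other large neutral amino acids across the barrier (ENSMUSG00000040010; chromosome 8, 121881150 to 121907694, minus strand, overlapping Gm20388 on the opposite strand). It was at 27.6 CPM in PKO-NF1, 20.9 in NF1, 70.5 in PKO and 66.0 in WT. The libraries thus formed a low pair with mutant Nf1 and a high pair with intact Nf1. Slc7a5 was 3.16-fold lower in NF1 than WT (2.82 to 3.55), at percentile 1.56 of the log2 ratios of all 14700 genes, and 2.55-fold lower in PKO-NF1 than PKO (2.29 to 2.85), at percentile 5.01.

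Slc3a2 encodes CD98 heavy chain, the glycoprotein that LAT1 and its related light chains need to reach the cell surface (ENSMUSG00000010095; chromosome 19, 8706882 to 8723369, minus strand). It was at 86.9 CPM in PKO-NF1, 53.1 in NF1, 121 in PKO and 111 in WT. The order of the libraries was that of Slc7a5, with a narrower spread. Slc3a2 was 2.10-fold lower in NF1 than WT (1.94 to 2.26), and in PKO-NF1 1.39-fold lower than PKO (1.30 to 1.49). Per kilobase, Slc7a5 stood at 0.254 of Slc3a2 in PKO-NF1 and 0.314 in NF1, against 0.467 in PKO and 0.473 in WT, so the light chain was lower relative to the heavy chain in both Nf1 mutants. Summed over 6 light chains of CD98, LAT1 included, a sum added after the single values had been seen, the level was 80.4 CPM in NF1 and 170 CPM in WT (2.11-fold lower, 1.99 to 2.25). It was 93.3 CPM in PKO-NF1 and 171 CPM in PKO (1.84-fold lower, 1.73 to 1.95). The fall of both sums lay mainly in Slc7a5 and Slc7a10, not in the light chains as a group. Slc7a10 was at 13.5 CPM in NF1 and 56.7 CPM in WT, and at 27.3 CPM in PKO-NF1 and 58.5 CPM in PKO. Slc7a6 was at 17.2 CPM in NF1 and 16.05 CPM in WT, and at 16.2 CPM in PKO-NF1 and 13.6 CPM in PKO. Another light chain, Slc7a8 (LAT2), was at 18.5 CPM in NF1 and 20.6 CPM in WT (interval of the ratio including 1), and at 10.5 CPM in PKO-NF1 and 15.7 CPM in PKO (1.49-fold lower, 1.23 to 1.82).

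Slc38a5 encodes SNAT5, a glutamine carrier known from brain endothelium (ENSMUSG00000031170; X chromosome, 8271133 to 8280179, plus strand). It had 3 counts in PKO-NF1, 2 in NF1, 0 in PKO and 1 in WT. All 4 values lie at or under the limit of 3 counts, so no fold is given. In the PKO library, listed at 0, the exact Poisson interval reached 0.207 CPM, so a lower level was not detectable at this depth. It was left out of the counts of genes below.

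Slc16a1 encodes MCT1, which passes lactate, pyruvate and ketone bodies and is expressed by perineurial and Schwann cells (ENSMUSG00000032902; chromosome 3, 104638668 to 104658462, plus strand, 5 exons). It was at 162 CPM in PKO-NF1, 144 in NF1, 178 in PKO and 122 in WT. WT was the lowest library and the Nf1 mutants lay between PKO and WT. Slc16a1 was 1.18-fold higher in NF1 than WT (1.11 to 1.25), and in PKO-NF1 1.10-fold lower than PKO (1.04 to 1.15), opposite directions of small size. The chaperone basigin, Bsg, which brings MCT1 to the membrane, was at 577 CPM in NF1 and 406 CPM in WT, and at 686 CPM in PKO-NF1 and 582 CPM in PKO.

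Slco1a4 encodes Oatp1a4, which carries bile acids, steroid conjugates and other organic anions and is known from brain vessels (ENSMUSG00000030237; chromosome 6, 141805440 to 141856199, minus strand, 17 exons). It was at 26.4 CPM in PKO-NF1, 24.2 in NF1, 27.8 in PKO and 34.1 in WT. The 3 mutant libraries lay close together below WT. Slco1a4 was 1.41-fold lower in NF1 than WT (1.25 to 1.60), while PKO-NF1 and PKO did not differ beyond counting error (1.06-fold lower, 0.926 to 1.20).

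Abcb1a encodes one of the mouse P-glycoproteins, the drug efflux pump of barrier endothelium (ENSMUSG00000040584; chromosome 5, 8660077 to 8748575, plus strand, 28 exons). It was at 48.5 CPM in PKO-NF1, 37.7 in NF1, 66.5 in PKO and 71.0 in WT. Both Nf1 mutants were again the low libraries. Abcb1a was 1.88-fold lower in NF1 than WT (1.72 to 2.07), and in PKO-NF1 1.37-fold lower than PKO (1.25 to 1.502). Its close paralog Abcb1b, a second P-glycoprotein gene, went the other way, at 18.5 CPM in NF1 and 14.9 CPM in WT (1.24-fold higher, 1.05 to 1.46) and at 21.8 CPM in PKO-NF1 and 14.2 CPM in PKO (1.54-fold higher, 1.30 to 1.81). Per kilobase, Abcb1b came to 0.523 of Abcb1a in PKO-NF1 and 0.569 in NF1, against 0.248 in PKO and 0.244 in WT. Reads that fit both genes may have been split or dropped in counting. The pair was also summed, a step added after the single values had been seen. A sum recovers split reads but not dropped ones. The sum was 56.2 CPM in NF1 and 86.0 CPM in WT (1.53-fold lower, 1.41 to 1.66), and 70.3 CPM in PKO-NF1 and 80.7 CPM in PKO (1.15-fold lower, 1.06 to 1.24).

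Abcg2 encodes the breast cancer resistance protein, an efflux pump of endothelium that is also found in erythroid precursors and macrophages (ENSMUSG00000029802; chromosome 6, 58584523 to 58695676, plus strand, 16 exons). It was at 109 CPM in PKO-NF1, 67.5 in NF1, 69.7 in PKO and 74.1 in WT. PKO-NF1 stood above the other libraries, which lay close together. Abcg2 was 1.56-fold higher in PKO-NF1 than PKO (1.45 to 1.68), 1.62-fold higher in PKO-NF1 than NF1 (1.504 to 1.74) and 1.10-fold lower in NF1 than WT (1.02 to 1.19). The summed levels of erythroid and of macrophage genes were also highest in PKO-NF1. The erythroid enzyme gene Alas2 was at 126 CPM in PKO-NF1, 4.57 in NF1, 10.9 in PKO and 14.9 in WT, while 4 of the 6 erythroid genes, the globins, were listed at 0 in every library. The 12 macrophage genes, none at 0 in any library, summed to 3798 CPM in PKO-NF1, 1970 in NF1, 2624 in PKO and 1698 in WT, though Cx3cr1 was highest in NF1, Mrc1 in PKO and Cd163 in WT. Their part in the Abcg2 level was not tested.

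**Figure D1:**
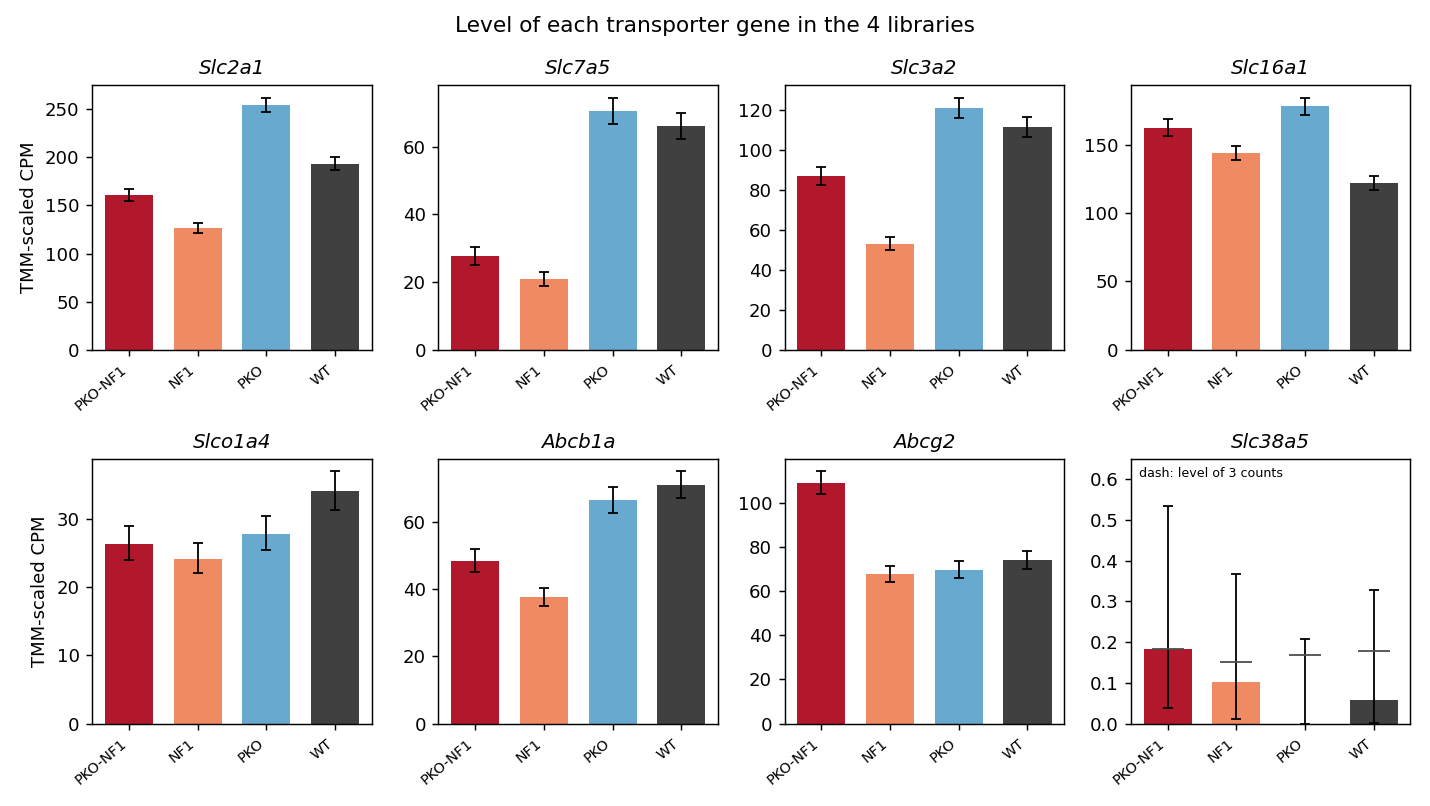
TMM-scaled CPM of each of the 8 transporter genes in the libraries PKO-NF1, NF1, PKO and WT, with 1 bar per library and exact Poisson 95% intervals for counting error only. Slc7a5, Slc3a2, Slc2a1 and Abcb1a are lower in both Nf1-mutant libraries than in PKO and WT, Abcg2 is highest in PKO-NF1, and Slc38a5 lies at or under the level of 3 counts in all 4 libraries.

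The comparison of NF1 with WT asks how the carriers differ when Nf1 is lost in the Schwann cell lineage. This pair also differed in Xist, Ddx3y and skeletal muscle genes. With 1 library for each genotype these differences cannot be told apart from that of Nf1. Of the 7 measured genes, 2 were at least 2-fold lower, Slc7a5 and Slc3a2, where 6.31% of all genes were at least 2-fold lower. None was at least 2-fold higher, where 10.4% of all genes were. The interval lay below 1 for 6 of the 7 genes, all but Slc16a1, where 35.2% of all genes had such an interval. The median log2 ratio was -0.61 over the 7 genes and 0.00 over all genes.

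The same question where P2ry14 is absent rests on PKO-NF1 and PKO, which share no library with the pair above. Skeletal muscle genes summed to 405 CPM in PKO-NF1 and 195 CPM in PKO, so this pair carried little muscle RNA. The pair did differ in Xist (9 counts in PKO-NF1 and 4948 in PKO) and Ddx3y (842 and 396 counts). Those differences likewise cannot be told apart from that of Nf1. Slc7a5 alone was at least 2-fold lower, where 9.7% of all genes were, and none was at least 2-fold higher, where 5.2% were. The interval lay below 1 for 5 of the 7 genes, against 35.1% of all genes. It lay above 1 for Abcg2 and included 1 for Slco1a4. The median log2 ratio was -0.46 over the 7 genes and -0.01 over all genes.

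**Figure D2:**
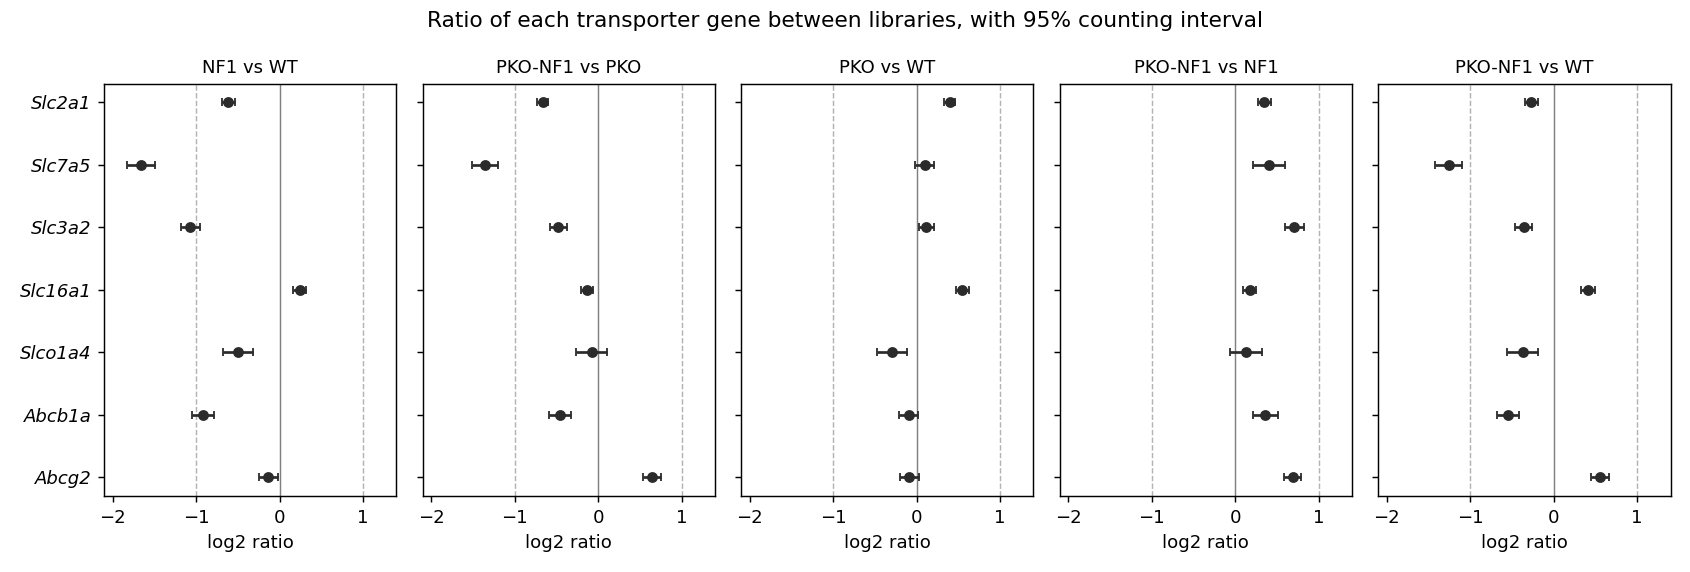
Log2 ratio of each of the 7 measured transporter genes in the 5 comparisons, each point with its 95% counting interval, with dashed lines at 2-fold. Slc7a5 lies beyond 2-fold lower in NF1 vs WT, PKO-NF1 vs PKO and PKO-NF1 vs WT, and every gene lies on the higher side in PKO-NF1 vs NF1.

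Transcript GC content differed among the carriers. The longest transcripts of Slc7a5, Slc3a2 and Slc2a1 had 56.3%, 53.4% and 54.0% GC, while those of Abcb1a, Slc16a1, Slco1a4 and Abcg2 had 45.2%, 42.9%, 40.3% and 39.2%, against a median of 49.7% over all measured genes. After subtraction of smooth trends over length and GC, Slc7a5 was at a log2 ratio of -1.25 in NF1 vs WT and Slc3a2 at -0.91. Slc7a5 was then the single carrier at least 2-fold lower, where 4.49% of all genes were. In PKO-NF1 vs PKO the log2 ratio of Slc7a5 was -0.999 on the same scale and none of the 7 passed 2-fold, where 4.95% of all genes were lower. Slco1a4 moved the other way, to -0.81 for NF1 vs WT and -0.63 for PKO-NF1 vs PKO, and Slc16a1 to 0.11 and -0.43. After this step all 7 genes but Slc16a1 in NF1 vs WT and Abcg2 in PKO-NF1 vs PKO (0.33) had a log2 ratio below 0.

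RNA of several cell types moved with the carriers. Of 22 endothelial genes, 14 passed 2-fold in NF1 vs WT, all lower (median log2 -1.19), with Vwf at 29.2 CPM in NF1 and 152 CPM in WT. In PKO-NF1 vs PKO 11 were lower and none higher (median -0.91). The 22 genes, none at 0 in any library, summed to 1053 CPM in PKO-NF1, 612 in NF1, 1709 in PKO and 1436 in WT. Fewer endothelial cells and less carrier RNA in each cell cannot be told apart in whole nerve. Relative to the endothelial median, Slc7a5 was still lower, by a log2 difference of -0.47 for NF1 vs WT and -0.44 for PKO-NF1 vs PKO. Slc3a2 was at 0.12 and 0.43, Abcb1a at 0.27 and 0.45, Slc2a1 at 0.57 and 0.24 and Slco1a4 at 0.69 and 0.83 in the same order of comparisons, so these genes were less reduced than the median endothelial gene. Abcg2 at 1.05 and 1.55 and Slc16a1 at 1.43 and 0.77 stood farthest above it. These differences were taken before subtraction of the length and GC trends. After that step the endothelial medians were -1.08 and -0.73. Slc7a5, at -1.25 and -0.999, then lay less far below the endothelial median. Slco1a4, at -0.81 and -0.63, lay less far above it. Perineurial genes were lower for 2 of 6 measured in NF1 vs WT (median -0.57) and 1 of 6 in PKO-NF1 vs PKO (median 0.09). Cldn1, the perineurial claudin, was at 216 CPM in NF1 and 196 CPM in WT, and at 219 CPM in PKO-NF1 and 176 CPM in PKO. The summed level of the 7 perineurial genes, none at 0, was 560 CPM in PKO-NF1, 568 in NF1, 799 in PKO and 848 in WT. Itgb4, the most abundant of them, weighs heavily in these sums. It was at 135 CPM in PKO-NF1, 223 in NF1, 420 in PKO and 464 in WT, lower in both Nf1 mutants, unlike Cldn1. Of 9 adipocyte genes, none at 0, 7 were at least 2-fold lower in NF1 vs WT (median -1.32) and 3 in PKO-NF1 vs PKO (median -0.59), with sums of 13063 CPM in PKO-NF1, 3731 in NF1, 17945 in PKO and 6586 in WT. Of the 15 myelinating Schwann cell genes 12 were lower for NF1 vs WT and 7 for PKO-NF1 vs PKO. The part of these cell types in the carrier ratios was not tested.

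**Figure D3:**
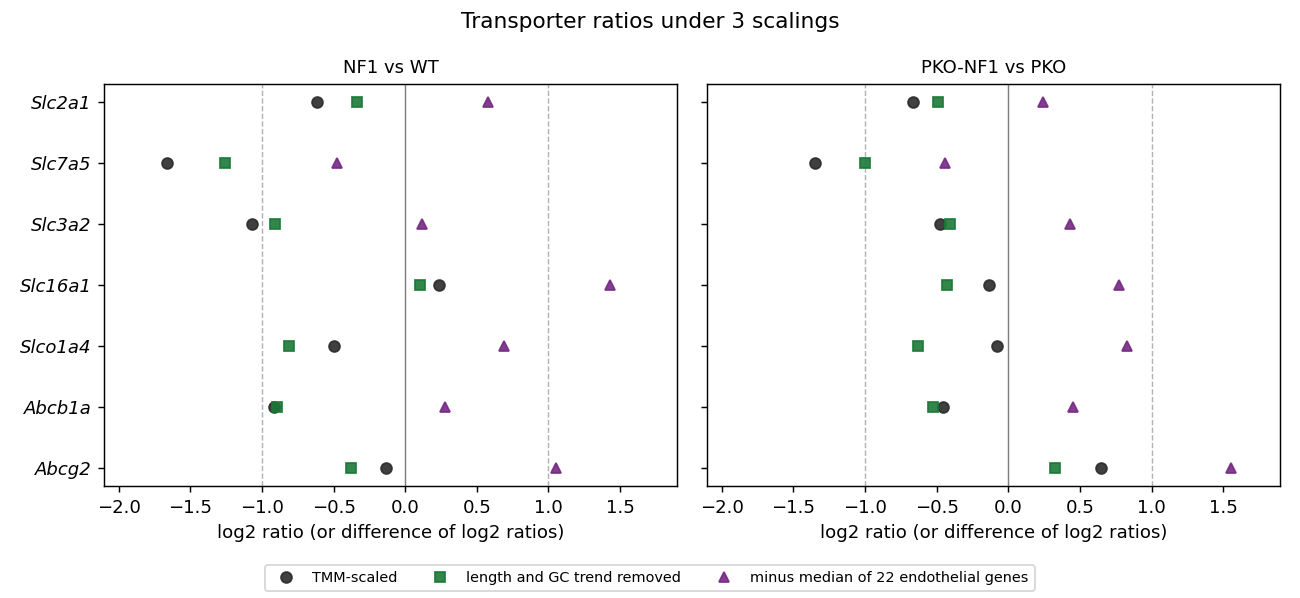
Log2 ratios of the 7 transporter genes in NF1 vs WT and PKO-NF1 vs PKO as TMM-scaled values (circles), with the length and GC trend removed (squares), and as the difference from the median log2 ratio of 22 endothelial genes (triangles). Dashed lines mark 2-fold, and Slc7a5 is the single gene left of 0 on all 3 scales in both comparisons.

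Libraries whose labelled genotypes differ in P2ry14 were compared next. These pairs also differed in Xist, Ddx3y and skeletal muscle genes. With 1 library for each genotype these differences cannot be told apart from that of P2ry14. In PKO vs WT none of the 7 genes was at least 2-fold lower or higher, where 5.22% and 10% of all genes were. Slc16a1 was 1.46-fold higher in PKO than in WT (1.38 to 1.55), a log2 ratio of 0.55, and 0.09 with total-count scaling. Slc2a1 was 1.32-fold higher (1.26 to 1.38), a log2 ratio of 0.40, and -0.06 with total-count scaling. Slco1a4 was 1.23-fold lower (1.08 to 1.38), a log2 ratio of -0.29, and -0.75 with total-count scaling. The intervals of Slc7a5 (1.07-fold higher, 0.985 to 1.16), Abcb1a and Abcg2 included 1. The median log2 ratio was 0.10 over the 7 genes and -0.08 over all genes. In PKO-NF1 vs NF1 none passed 2-fold either, where 13.8% of all genes were lower and 7.9% higher. The interval lay above 1 for 6 of the 7, against 37.1% of all genes. Slc3a2 was 1.64-fold higher in PKO-NF1 than NF1 (1.51 to 1.77) and Slc7a5 1.33-fold higher (1.16 to 1.52), and Slco1a4 did not differ beyond counting error. Endothelial genes were higher in PKO-NF1 than NF1 as well, 6 of 22 by at least 2-fold, and skeletal muscle genes lower, 30 of 33. PKO-NF1 and WT differ in both Nf1 and P2ry14. In this comparison Slc7a5 alone passed 2-fold (2.39-fold lower, 2.14 to 2.67), where 17.5% of all genes were lower and 14.7% higher. Its log2 ratio of -1.26 became -0.62 after subtraction of the length and GC trends, which ended the call (7.21% of all genes were then at least 2-fold lower).

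An additive edgeR quasi-likelihood model over the 4 libraries had a term for each mutation and 1 residual degree of freedom, the interaction. Its spread thus comes from the interaction, moderated over all genes, since no genotype has a replicate library. At the Nf1 term 0 of the 7 carriers had an adjusted p under 0.05, where 0% of 14105 genes did (2924 of all genes were under 0.05 unadjusted). Without adjustment 3 of the 7 were under 0.05. Slc7a5 had a fitted log2 change of -1.5 (SE 0.22, edgeR adjusted p = 0.175), Abcb1a -0.68 (SE 0.23, edgeR adjusted p = 0.209) and Slc3a2 -0.77 (SE 0.27, edgeR adjusted p = 0.213). The DESeq2 Wald test with the same design called Slc7a5 (adjusted p = 0.00689) and none of the other 6, where 2.28% of 12464 genes were called. At the P2ry14 term edgeR called 0 of the 7, none of which was under 0.05 unadjusted, where 0.0496% of all genes were called, and DESeq2 called 0, where it called 5.65% of 12737 genes.

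Other carriers were described from lists of the same transport classes. Their counts at 2-fold stand beside 6.31% of all genes lower and 10.4% higher in NF1 vs WT. In PKO-NF1 vs PKO those shares were 9.7% and 5.2%. The glucose transporters, Slc2a1 included, had 2 of 10 measured members higher and 1 lower in NF1 vs WT (median log2 -0.40) and 1 higher in PKO-NF1 vs PKO (median -0.22). The insulin-responsive Slc2a4 (GLUT4) of muscle and fat was at 101 CPM in NF1 and 52.2 CPM in WT, against 43.6 CPM in PKO-NF1 and 71.9 CPM in PKO. Slc2a3 (GLUT3), the high-affinity transporter of neurons, was 2.34-fold higher in PKO-NF1 than PKO (10.8 against 4.61 CPM; 1.79 to 3.08) and 1.75-fold lower in NF1 than WT (6.29 against 11.03 CPM; 1.39 to 2.22), opposite directions in the pairs.

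Amino acid carriers beyond the 3 above had 5 of 26 measured members lower and 3 higher in NF1 vs WT (median -0.57), and 5 lower and 1 higher in PKO-NF1 vs PKO (median -0.63). Slc1a5 (ASCT2), a glutamine exchanger and the most abundant of them, was at 139 CPM in NF1 and 616 CPM in WT (4.45-fold lower, 4.26 to 4.64), and at 318 CPM in PKO-NF1 and 616 CPM in PKO (1.94-fold lower, 1.87 to 2.002). Slc7a10 (Asc-1), another CD98 partner that fat also expresses, was 4.20-fold lower in NF1 than WT (3.66 to 4.83), and in PKO-NF1 2.14-fold lower than PKO (1.91 to 2.39; log2 -0.91 without the trends, short of 2-fold). The cystine carrier Slc7a11 was higher in both pairs but low throughout, at 1.98 CPM in NF1 and 0.472 CPM in WT, and at 1.89 CPM in PKO-NF1 and 0.731 CPM in PKO. Slc38a3, at 23.0 CPM in NF1 and 0.767 CPM in WT (30.0-fold higher, 17.4 to 56.8), had 0 counts in PKO-NF1, so it was high in the library rich in muscle genes alone.

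Monocarboxylate carriers beyond Slc16a1 had 1 of 11 higher and 2 lower in NF1 vs WT (median -0.45) and none of 11 at 2-fold in PKO-NF1 vs PKO (median 0.36). Slc16a3 (MCT4), the lactate exporter of glycolytic muscle, was at 33.3 CPM in NF1 and 3.13 CPM in WT, and at 1.71 CPM in PKO-NF1 and 2.81 CPM in PKO. Organic anion and nucleoside carriers had 1 of 13 higher and 4 lower in NF1 vs WT (median -0.78) and 2 lower in PKO-NF1 vs PKO (median -0.21). The prostaglandin carrier Slco2a1 of endothelium was lower in both pairs, at 16.5 CPM in NF1 and 45.1 CPM in WT (2.73-fold, 2.39 to 3.12) and at 15.7 CPM in PKO-NF1 and 46.3 CPM in PKO (2.94-fold, 2.55 to 3.39). Without the trends Slco2a1 was at log2 ratios of -0.995 and -0.96, short of 2-fold in both.

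ABC pumps had 1 of 14 higher and 3 lower in NF1 vs WT (median -0.42) and 5 lower in PKO-NF1 vs PKO (median -0.66). The lipid transporter Abca2 was at 50.1 CPM in NF1 and 183 CPM in WT, and at 45.2 CPM in PKO-NF1 and 148 CPM in PKO. After subtraction of the length and GC trends Abca2 was no longer 2-fold lower in PKO-NF1 vs PKO, with a log2 ratio of -0.76 against -1.71 before. Abcb4, the phospholipid floppase next to Abcb1a, was at 141 CPM in NF1 and 3.13 CPM in WT, but at 1.65 CPM in PKO-NF1 and 1.29 CPM in PKO. The remaining barrier carriers had 1 of 24 higher and 8 lower in NF1 vs WT (median -0.61) and 3 lower in PKO-NF1 vs PKO (median -0.48). Mfsd2a, the lysolipid carrier of barrier endothelium, was 5.37-fold lower in NF1 than WT (4.46 to 6.50), and in PKO-NF1 2.09-fold lower than PKO (1.82 to 2.41), and Aqp1, a water channel, 2.44-fold lower in NF1 than WT (2.29 to 2.61). These medians compare with 0.00 over all genes for NF1 vs WT and -0.01 for PKO-NF1 vs PKO. Abcb4, Slc38a3, Slc16a3 and Slc2a4 were highest in the NF1 library, as were the skeletal muscle genes, and the part of muscle RNA in these values was not tested.

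**Figure D4:**
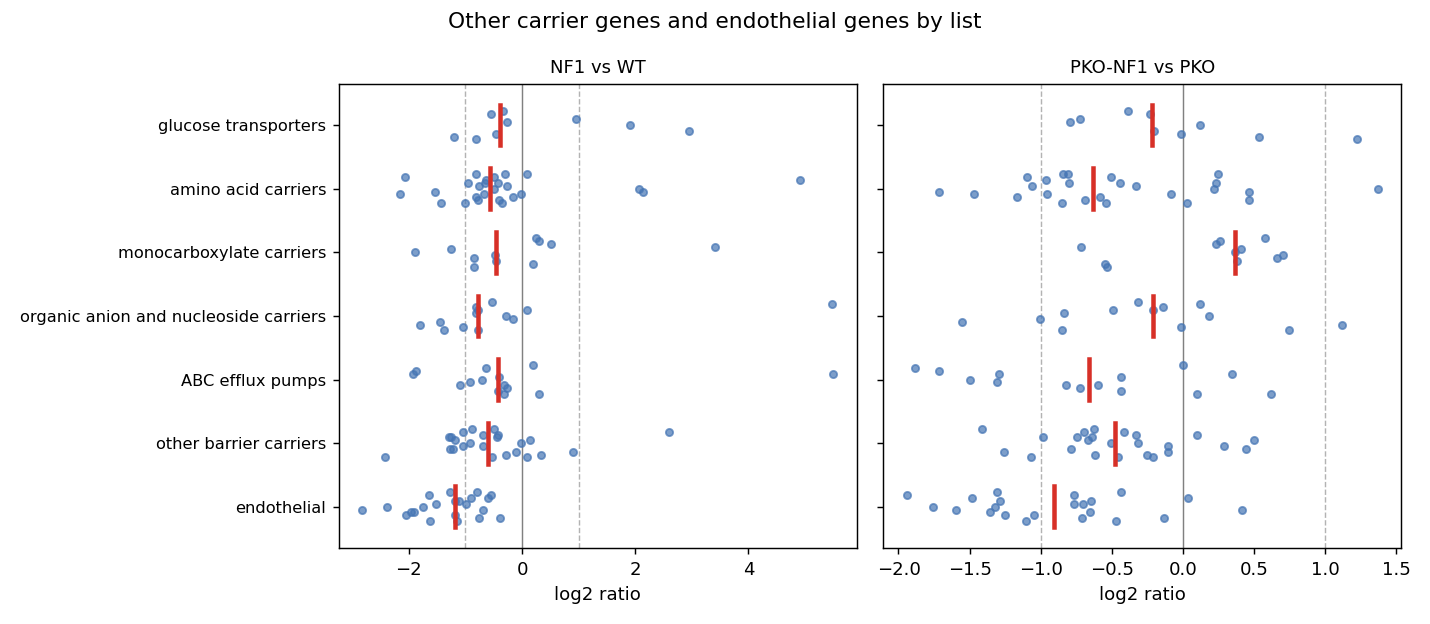
Log2 ratio of the measured genes (points) of 6 lists of carriers and the endothelial list in NF1 vs WT and PKO-NF1 vs PKO, with each list's median as a red bar and dashed lines at 2-fold. Slc2a1 enters the median of the glucose transporters but is not drawn as a point. Slc38a3, at 0 counts in PKO-NF1, is not drawn in that panel. Medians lie below 0 except for monocarboxylate carriers in PKO-NF1 vs PKO (0.36), and the points far to the right in NF1 vs WT include Slco5a1, Abcb4 and Slc38a3.

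Pathways known to act on these carriers were described in the same way, beside the same shares of all genes as the carrier lists. Slc7a5 and Slc3a2 are targets of ATF4, the transcription factor of the amino acid response. Of 24 genes of that response 2 were higher and 4 lower in NF1 vs WT (median log2 -0.14), and 2 were higher and 1 lower in PKO-NF1 vs PKO (median 0.11). Atf4 itself was at 237 CPM in NF1 and 179 CPM in WT, and at 350 CPM in PKO-NF1 and 230 CPM in PKO. Wnt signalling maintains Slc2a1 in brain endothelium. Of 21 measured genes of the Wnt and barrier programme 7 were lower and none higher in NF1 vs WT (median -0.64), and 8 were lower and none higher in PKO-NF1 vs PKO (median -0.76). Spock2 was 3.14-fold lower in NF1 than WT (2.82 to 3.51), and in PKO-NF1 4.67-fold lower than PKO (4.14 to 5.28). The Wnt target Apcdd1 was 3.02-fold lower in NF1 than WT (2.67 to 3.43). In PKO-NF1 Apcdd1 was 1.59-fold lower than PKO (1.43 to 1.77), with a log2 ratio of -0.17 without the length and GC trends. After subtraction of the length and GC trends the medians of this list were -0.44 and -0.51. Those of other lists, in the same order, were -0.09 and -0.04 for glucose transporters, -0.35 and -0.36 for amino acid carriers, -0.41 and 0.23 for monocarboxylate carriers, -0.57 and -0.20 for organic anion carriers, -0.12 and -0.24 for ABC pumps, and -0.44 and -0.47 for the remaining carriers. Hypoxia response genes, which include known regulators and companions of Slc2a1, had 5 of 18 higher and 1 lower in NF1 vs WT (median 0.70) and 1 lower in PKO-NF1 vs PKO (median -0.13). Ldha, a hypoxia-induced gene that muscle also expresses strongly, was at 1030 CPM in NF1 and 254 CPM in WT, and at 388 CPM in PKO-NF1 and 386 CPM in PKO. Epas1, the HIF subunit of endothelium, was 2.54-fold lower in NF1 than WT (2.38 to 2.71), and in PKO-NF1 2.62-fold lower than PKO (2.46 to 2.80); the trends' subtraction left -0.94 and -0.93 on the log2 scale, short of 2-fold. Xenobiotic sensors and their targets, which can induce Abcb1a and Abcg2, had 3 of 13 lower in NF1 vs WT (median -0.45) and 1 lower in PKO-NF1 vs PKO (median -0.17), and none higher in either.

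Genes whose centred log2 levels lay nearest to each carrier over the 4 libraries were sought among 11254 genes at a mean of 5 CPM or more. Such likeness over 4 points is a description, since libraries share depth and composition. For Slc7a5 the nearest were Sema3b, a secreted semaphorin (root mean square difference 0.03 on the log2 scale), Sox18, an endothelial transcription factor (0.05), and the tetraspanin Tspan18 (0.06), and 12 genes lay within 0.1. Sema3b was at 208 CPM in PKO-NF1, 153 in NF1, 537 in PKO and 487 in WT. Sox18 was at 9.09 CPM in PKO-NF1, 6.90 in NF1, 22.7 in PKO and 23.3 in WT. The nearest to Slc3a2 were the kinase gene Pim3, the heparan sulfatase gene Sulf2 and Papss1, all within 0.03. For Abcb1a they were Gas1, Lrrc4 and Ctdspl, for Slc2a1 Gfod2, Thbs3 and Rbm42, for Slc16a1 Akirin2, Hvcn1 and Samm50, for Slco1a4 Egfl6, Dedd2 and Zfp324, and for Abcg2 Vwc2, Gtf2h3 and Ptdss1. Among the carriers themselves the closest pair was Slc3a2 with Abcb1a (0.15), followed by Slc2a1 with Slc3a2 (0.17) and Slc2a1 with Abcb1a (0.18), and the farthest was Slc7a5 with Abcg2 (0.88).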

How the data were processed

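Sciatic nerve RNA of 4 genotypes was sequenced, 1 library each. Per the labels' protocols, flash-frozen nerves were extracted with Trizol and libraries were made with a TruSeq RNA kit. The authors deposited raw counts per gene symbol. Build mm10, featureCounts 1.5.2, HISAT2 2.0.5 and FastQC 0.11.7 are listed, per the submitters' processing notes. Not given in the sources used here are strandedness, annotation and the handling of reads with several matches, so paralogs and overlapping genes are uncertain.

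Counts were scaled with edgeR 4.0.16 TMM factors (R 4.3.3). Genes at 1 CPM in at least 1 library were kept. Ratios carry Clopper-Pearson 95% intervals; reads are not independent molecules, so these cover counting error only. The additive model used glmQLFit and glmQLFTest on 14105 genes at 1 CPM in at least 2 libraries, with Benjamini-Hochberg adjustment over all genes. DESeq2 1.42.0 was an alternative. Length and GC came from GENCODE M21 on GRCm38, matched to 22750 symbols directly and 922 through RefSeq synonyms; trends were natural splines with 4 degrees of freedom, centred on the median gene. Adgre1 and Adgra2 were found under older symbols. Interval and model code was tested on simulated data.

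All 8 carriers are named, with examples from up to 3 genes per direction and comparison with the largest fold in each list, and the 3 with the highest mean CPM. Slc7a6, Slc7a8, Abcb1b, Cx3cr1, Mrc1 and Cd163 were added after their values were seen. Protein sequences were not used here. The carriers, lists and rules were chosen with earlier results of these data known.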

Additional observations from a re-analysis of the deposited data

Results flagged for a closer look

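The ratio of Slc16a1 (MCT1) had opposite signs in the pairs of libraries that differ in Nf1, at -0.13 on the log2 scale for PKO-NF1 vs PKO and 0.24 for NF1 vs WT, each with a counting interval that excluded 0. Abcg2 likewise was at 0.65 for PKO-NF1 vs PKO and -0.13 for NF1 vs WT. With total-count scaling Slc16a1 was at -0.05 and 0.02 and Abcg2 at 0.72 and -0.35, in the same order. The first ratio minus the second was -0.37 for Slc16a1 (counting interval -0.48 to -0.26) and 0.78 for Abcg2 (0.63 to 0.93). The 12 macrophage genes summed to 3798 CPM in PKO-NF1 and 2624 CPM in PKO, and to 1970 CPM in NF1 and 1698 CPM in WT. The skeletal muscle genes summed to 405 CPM in PKO-NF1 and 195 CPM in PKO, and to 71535 CPM in NF1 and 1271 CPM in WT, and the part of either was not tested. With 1 library for each genotype the difference was not tested against a spread between animals.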

How the results depend on the processing

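The number of the 7 carriers at least 2-fold apart was the same with DESeq2 size factors and TMM without muscle genes in all 5 comparisons. It was also the same with no filter and a 5 CPM filter, which could not change it. The 7 lie far above 5 CPM in every library, and Slc38a5 is at 3 counts or fewer. Total counts add -0.46 to 0.08 to every log2 ratio of a comparison, and -0.22 in NF1 vs WT. The number became 3 in NF1 vs WT and stayed the same elsewhere. The share of all genes at that scaling is not given here. Removing the length and GC trends gave 1 in NF1 vs WT, 0 in PKO-NF1 vs PKO and 0 in PKO-NF1 vs WT, against 2, 1 and 1 as reported. Scaling to the endothelial list adds 1.19, 0.91 and 0.96 to every log2 ratio in those comparisons, so that 2, 1 and 2 carriers were at least 2-fold higher, as were 61.3%, 43.3% and 48% of all genes. In NF1 vs WT, Slc2a1, Slc3a2 (0.12), Slco1a4, Abcb1a and Abcg2 then lay above 0. A 1.5-fold threshold gave 4 lower in NF1 vs WT (16.7% of all genes), 3 in PKO-NF1 vs PKO (2 lower and 1 higher, where 20.1% and 15.6% of all genes were) and 2 higher in PKO-NF1 vs NF1 (20% of all genes). The DESeq2 Wald test called 1 carrier at the Nf1 term, against 0 by edgeR. Leaving out each library, in models with 1 term, called between 0 and 0 carriers at either term; the additive model then has no residual degree of freedom. Over all genes the Nf1 term called 0 in edgeR as reported, 284 with DESeq2, 46 without a filter, 15 with the trend as offsets and 84 in the 1-term model without PKO-NF1. The P2ry14 term called 7 as reported, 720 with DESeq2, 108 without a filter, 62 with the offsets, 0 in the 1-term model, and 32 and 363 in that model without NF1 and without WT. Of 175 single ratios under the 5 other scalings, 27 changed sign: 21 under endothelial scaling, 4 under total counts (Slc2a1, Slc7a5 and Slc3a2 in PKO vs WT, Slco1a4 in PKO-NF1 vs NF1) and 2 without the trends (Abcg2 in PKO vs WT, Slc2a1 in PKO-NF1 vs WT). Depth limits Slc38a5, at 3 counts or fewer. No paired analysis was possible because each genotype has 1 library and the labels give no replicate numbers.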
